A study of Mus musculus with 14 samples.

Results

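The cytosolic sensors of RNA and DNA are proteins that recognise foreign or misplaced nucleic acid inside the cell, and 10 mouse genes of this kind were followed here: Ifih1, Ddx58, Dhx58, Eif2ak2, Zbp1, Nod1, Aim2, Ifi204, Ifi208 and Ifi213. A gene was kept if the array held a probe set (the probes summarised to 1 value) annotated to its symbol alone, and the brightest such probe set stood for it. Of the 10, 9 had their own probe set, and all 9 passed the brightness filter, among 19752 genes with a probe set of their own and 11851 tested. Ifi204 shares its only probe set with Ifi211 and was skipped. The label holds for most of the list, but Nod1 is known as a sensor of bacterial cell wall fragments and not of nucleic acid.

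The samples were CD4+ T cells of the spleen, taken by negative selection from male C57BL/6 mice 6 weeks old, and every sample had been activated with CD3/CD28 beads for 48 h. All samples then received interferon alpha at 100 U/ml together with a JAK inhibitor at its IC80, the dose that blocks most of the target's activity. The 4 inhibitors whose target label names JAK1 or TYK2, or all the kinases, were IFN.3404 (JAK1), IFN.6221 (JAK1/2), IFN.6222 (PAN) and IFN.2485 (TYK2), called the JAK1/TYK2 class below. The 3 whose label names only JAK2 or JAK3, called the JAK2/JAK3 class, were IFN.3885 against JAK2 and a pair against JAK3, IFN.6226 and IFN.6228. Each inhibitor had 1 array at 8 h and 1 at 2 h, 14 in all, and the labels do not say which arrays share mice or cultures. Arrays without inhibitor were not analysed here, so each difference is between inhibitors or between times. No p below measures the spread between repeated cultures: between classes of inhibitor it rests on the spread between inhibitors, and between times on how unevenly the inhibitors differed between the times. For 1 inhibitor against others, the 8 h and 2 h arrays of each inhibitor serve as its replicates, although they differ in time and are not repeats of a condition.

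In the cytosol, the RNA helicases RIG-I and MDA5 bind viral RNA and signal through the adaptor MAVS to the transcription factors that switch on the interferon genes. DNA is sensed by cGAS, which signals through STING, and by AIM2, which assembles an inflammasome. Interferon alpha binds a receptor whose chains carry JAK1 and TYK2, and the STAT complex that they activate binds a promoter element called ISRE. Many sensors are themselves interferon-induced, which is known as a positive loop in which a first interferon signal prepares the cell to detect more nucleic acid.

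The promoters are shown as background on that element, and signalling to it was not measured here. Windows of 300 bases, 250 before to 50 after the start of a gene, came from RefSeq (build GRCm38.p6). Of the 9 genes, 7 had a window, Nod1 having a pair of them, and Dhx58 and Zbp1 had none in the table. The searched ISRE motif was GAAANNGAAA on both strands. It was present in the windows of 5 of these 7 genes, Ifih1, Ddx58, Eif2ak2, Ifi208 and Ifi213, and in 3.44% of all 32851 windows. No match was found in the windows of Aim2 and Nod1. Of the related genes lower at 2 h, given further below, Ddx60 had 2 matches and Ifi203 had 1 in 1 of its 2 windows. Ifi209 and Trim25 had 0, and Tlr7 had no window. The motif began 33 bases after the start in Ifih1, 3 after it in Ddx58 (on the opposite strand) and 19 after it in Eif2ak2. It began at position -58 in Ifi208 and -73 in Ifi213, counted from the start. A second motif, GAS (TTCNNNGAA, which reads the same on both strands), known from STAT dimers, was found in the windows of Eif2ak2 and Nod1 and in 8.30% of all windows. A match is a string of letters, not a measured site. The 140 bases from 90 before the start to its 50th base are printed 5′ to 3′ along the gene, with the ISRE match in capitals.
Ifih1, chr2:62646206-62646345, minus strand: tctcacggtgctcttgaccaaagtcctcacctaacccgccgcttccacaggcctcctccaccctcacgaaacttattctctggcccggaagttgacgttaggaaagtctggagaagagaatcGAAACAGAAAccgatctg
Ddx58, chr4:40239776-40239915, minus strand: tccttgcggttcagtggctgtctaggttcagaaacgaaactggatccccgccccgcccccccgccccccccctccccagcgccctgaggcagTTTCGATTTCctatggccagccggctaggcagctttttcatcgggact
Eif2ak2, chr17:78882523-78882662, minus strand: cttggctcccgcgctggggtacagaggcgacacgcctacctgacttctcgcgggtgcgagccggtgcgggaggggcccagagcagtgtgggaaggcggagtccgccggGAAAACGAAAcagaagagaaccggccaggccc
Ifi208, chr1:173673575-173673714, plus strand: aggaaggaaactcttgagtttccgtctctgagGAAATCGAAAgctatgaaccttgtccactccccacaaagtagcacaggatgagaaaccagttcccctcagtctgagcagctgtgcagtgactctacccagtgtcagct
Ifi213, chr1:173599223-173599362, minus strand: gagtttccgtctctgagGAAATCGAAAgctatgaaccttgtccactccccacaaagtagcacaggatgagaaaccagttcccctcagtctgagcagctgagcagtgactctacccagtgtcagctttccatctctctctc
The Ifi208 and Ifi213 windows were nearly the same sequence: shifted by 15 bases, 282 of 285 positions were identical (98.9%). Each gene has its own probe set, but a signal shared between the pair was not tested.

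The values are intensities deposited for each array, given here on the log2 scale, so a difference of 1 is a 2-fold change. Averaged over the 14 arrays, Ddx58 (10.62) and Zbp1 (10.56) were the brightest, above 94.1% and 93.7% of the genes, and Aim2 (8.31) the dimmest, above 68.7%. Brightness depends on the probes as well as on the RNA, so the genes are not ordered by amount. The T cell markers, 6 of 6 above the filter, averaged 12.01 to 12.11 at 8 h and 11.67 to 11.81 at 2 h. The 6 macrophage markers, of which Lyz2 alone passed the filter, averaged 5.78 to 6.00 at 8 h and 5.69 to 5.95 at 2 h. The 4 B cell markers averaged 8.54 to 8.79 at 8 h and 8.11 to 8.31 at 2 h. In a bulk sample, fewer cells that express a gene and less RNA per cell cannot be told apart. The skeletal muscle list (7 genes, 5 above the filter) averaged 6.52 to 7.35 at 8 h and 6.51 to 7.32 at 2 h, with 7.30 in the 8 h array of the JAK1 inhibitor. The upper quartile of that array, 398, was below those of the other 13, and its mean Pearson r with the other 8 h arrays was 0.990. At 2 h no marker gene passed between the classes, with a skeletal muscle list mean of 6.80 in the JAK1/TYK2 class and 6.67 in the JAK2/JAK3 class. The part of these in the results below was not tested.

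**Figure D1:**
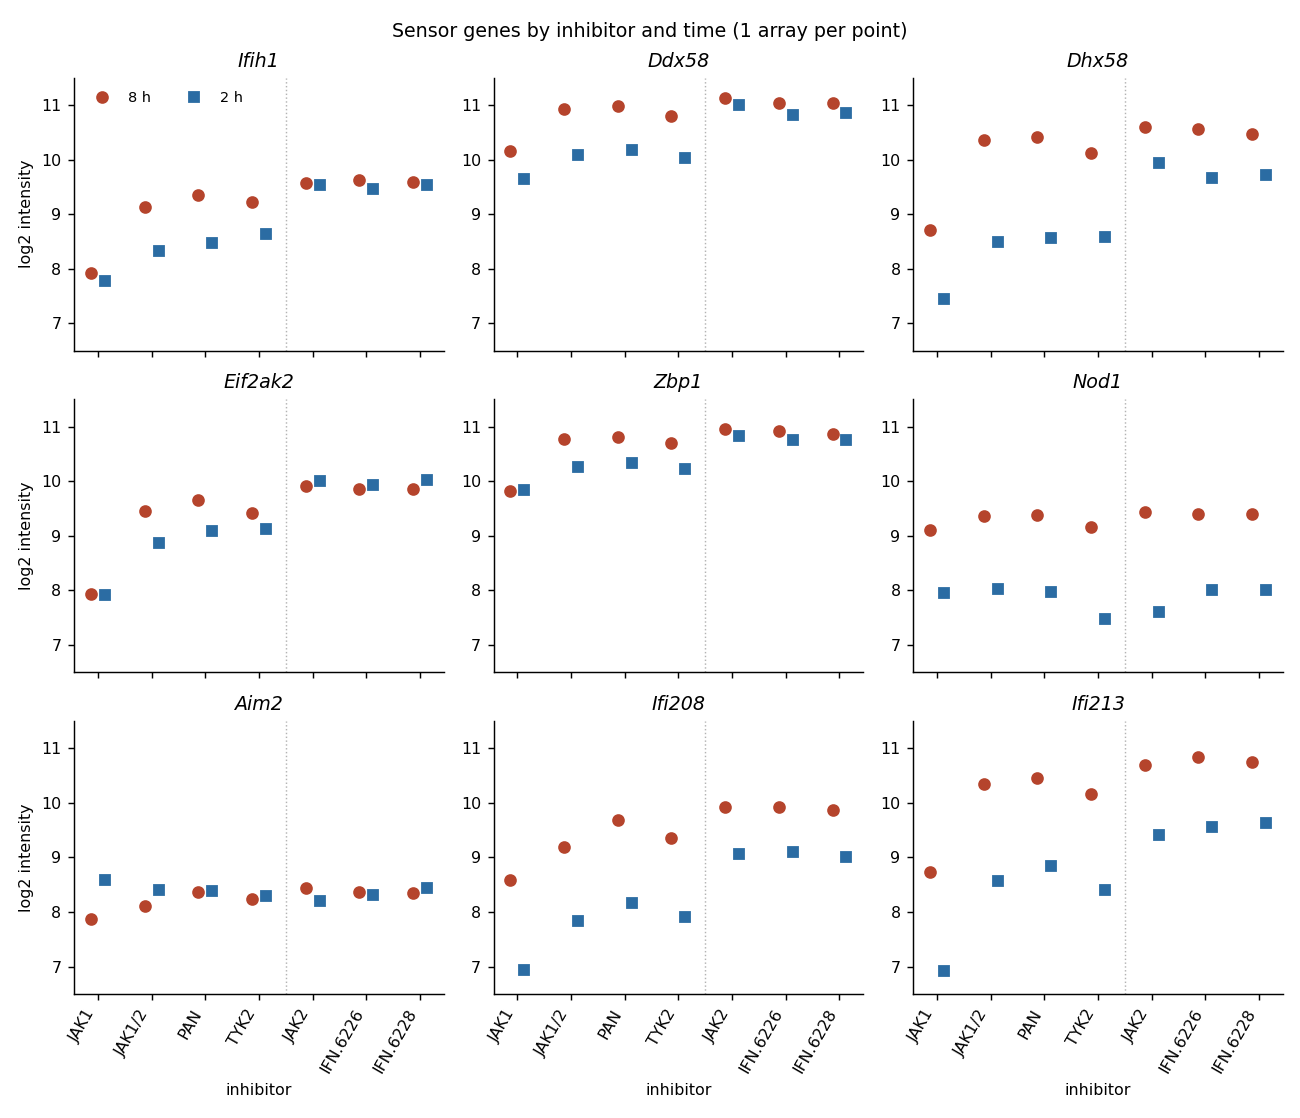
Log2 intensity of the 9 sensor genes in each array, 1 panel per gene, with the 7 inhibitors along the horizontal axis and the 8 h and 2 h arrays as separate points. At 2 h the JAK1, JAK1/2, PAN and TYK2 inhibitors lie below the other 3 inhibitors in 7 of the 9 genes, and Nod1 and Aim2 do not follow this.

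The first question was whether blocking the kinases of the interferon alpha receptor left less RNA of the sensors than blocking only JAK2 or JAK3. At 2 h, 6 of the 9 sensors were lower in the JAK1/TYK2 class: Ifih1, Ddx58, Dhx58, Eif2ak2, Zbp1 and Ifi208. They were 1.54-fold to 2.83-fold lower. Of the 11851 genes tested, 82 were lower, which is 0.692%, and 0 higher. Without the JAK2 inhibitor or without IFN.6228, 2 passed, Ifih1 and Ddx58, and the calls of Dhx58, Eif2ak2, Zbp1 and Ifi208 ended (adjusted p of up to 0.179). Robust moderation left 3 (Ifih1, Ddx58 and Zbp1), as did averaging the JAK3 inhibitors (Ifih1, Ddx58 and Dhx58). Of all genes, 35 were lower without the JAK2 inhibitor, 28 without IFN.6228, 46 with robust moderation and 34 with the JAK3 inhibitors averaged. The median difference was -1.21 over the 9 sensors and 0.01 over all genes.

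Ifih1 encodes MDA5, the helicase that recognises long double-stranded RNA. At 2 h its log2 intensity was 7.78 with the JAK1, 8.33 with the JAK1/2, 8.47 with the PAN and 8.64 with the TYK2 inhibitor, against 9.54 with JAK2, 9.46 with IFN.6226 and 9.53 with IFN.6228. The 4 lie below the 3 without overlap. The class means were 8.31 ± 0.37 (SD, n = 4) and 9.51 ± 0.04 (SD, n = 3), a difference of -1.21 (SE 0.15, 2.31-fold lower, adjusted p = 0.00174 by limma).

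Ddx58 encodes RIG-I, which recognises short double-stranded RNA with triphosphate ends. Its 2 h log2 intensity was 9.65 with the JAK1, 10.09 with the JAK1/2, 10.18 with the PAN and 10.04 with the TYK2 inhibitor, against 11.00 with JAK2, 10.81 with IFN.6226 and 10.85 with IFN.6228. The JAK1/2, PAN and TYK2 values lie close together, and all 4 of the class lie below the other 3. The difference was -0.90 (SE 0.10, 1.86-fold lower, adjusted p = 0.00106).

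Dhx58 encodes LGP2, a helicase of the same family that lacks the signalling domains of RIG-I and MDA5 and modulates them. Its 2 h log2 intensity was 7.45 with the JAK1, 8.49 with the JAK1/2, 8.57 with the PAN and 8.58 with the TYK2 inhibitor, against 9.93 with JAK2, 9.66 with IFN.6226 and 9.71 with IFN.6228. The groups do not overlap, and the difference, -1.50 (SE 0.22, 2.83-fold lower, adjusted p = 0.00437), is the largest of the 9 at this time. The array of the JAK1 inhibitor lies well below the other 3 of its class.

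Eif2ak2 encodes PKR, a kinase that binds double-stranded RNA and stops translation by phosphorylating an initiation factor. Its 2 h log2 intensity was 7.92 with the JAK1, 8.86 with the JAK1/2, 9.09 with the PAN and 9.12 with the TYK2 inhibitor, against 10.01 with JAK2, 9.93 with IFN.6226 and 10.02 with IFN.6228. Again no value of the 4 reaches the 3, and the difference was -1.24 (SE 0.22, 2.36-fold lower, adjusted p = 0.0161). Zbp1, which binds nucleic acid in the left-handed Z form and can start necroptosis, had 9.84 with the JAK1, 10.25 with the JAK1/2, 10.33 with the PAN and 10.22 with the TYK2 inhibitor, against 10.83 with JAK2, 10.76 with IFN.6226 and 10.75 with IFN.6228. Its difference, -0.62 (SE 0.10, 1.54-fold lower, adjusted p = 0.00736), was the smallest of the 6 that passed.

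Ifi208 and Ifi213 belong to the PYHIN family of interferon-inducible genes, to which Aim2 belongs as well. At 2 h Ifi208 had log2 intensities of 6.94 with the JAK1, 7.84 with the JAK1/2, 8.17 with the PAN and 7.92 with the TYK2 inhibitor, against 9.06 with JAK2, 9.11 with IFN.6226 and 9.004 with IFN.6228. Its difference was -1.34 (SE 0.21, 2.53-fold lower, adjusted p = 0.00766). Ifi213 had 6.93 with the JAK1, 8.57 with the JAK1/2, 8.84 with the PAN and 8.40 with the TYK2 inhibitor, against 9.41 with JAK2, 9.56 with IFN.6226 and 9.63 with IFN.6228. Its groups do not overlap either, but the JAK1 inhibitor lies far below the rest of its class. With all inhibitors its difference of -1.34 (SE 0.33) did not pass (adjusted p = 0.123). Ifi213 passed in 2 of the 7 fits that left out an inhibitor, and in 0 of 9 other settings. These were the fits without the JAK1 inhibitor (-0.92, adjusted p = 4.97e-05) and without the PAN inhibitor (-1.56).

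Aim2, the sensor of double-stranded DNA that recruits the inflammasome adaptor ASC, and Nod1, which signals through the kinase RIPK2, showed no such order at 2 h. Aim2 had log2 intensities of 8.59 with the JAK1, 8.40 with the JAK1/2, 8.38 with the PAN and 8.29 with the TYK2 inhibitor, against 8.20 with JAK2, 8.32 with IFN.6226 and 8.44 with IFN.6228. Nod1 had 7.95 with the JAK1, 8.03 with the JAK1/2, 7.97 with the PAN and 7.48 with the TYK2 inhibitor, against 7.60 with JAK2, 8.02 with IFN.6226 and 8.01 with IFN.6228. The groups overlap in both genes, with differences of 0.09 (SE 0.09, adjusted p = 0.994) for Aim2 and -0.02 (SE 0.13, adjusted p = 0.996) for Nod1. In 7 of the 9 sensors the 4 inhibitors lay below the 3 without overlap, as they did in 371 of all genes (3.13%).

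At 8 h, 0 of the 9 sensors passed the same test by limma, and 0 of all genes did (0%). At an unadjusted p under 0.05 there were 5 sensors and 1858 genes. All 9 differences were negative, between -0.83 and -0.16, with a median of -0.64 against -0.08 over all genes, and adjusted p between 0.307 and 0.362. In 8 of the 9 the 4 inhibitors lay below the 3 without overlap, as they did in 1609 of all genes (13.6%), and Aim2 is the exception. The skeletal muscle list had differences of the opposite sign at 8 h. Its mean was 7.03 in the JAK1/TYK2 class and 6.61 in the JAK2/JAK3 class, and its 5 tested genes differed by 0.36 to 0.52 (adjusted p = 0.307 for each). Its part in the 8 h values was not tested.

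The 8 h values of the helicases show where the spread lies. Ifih1 had log2 intensities of 7.92 with the JAK1, 9.13 with the JAK1/2, 9.36 with the PAN and 9.23 with the TYK2 inhibitor, against 9.58 with JAK2, 9.63 with IFN.6226 and 9.58 with IFN.6228. Ddx58 had 10.16 with the JAK1, 10.92 with the JAK1/2, 10.98 with the PAN and 10.79 with the TYK2 inhibitor, against 11.12 with JAK2, 11.03 with IFN.6226 and 11.04 with IFN.6228. Dhx58 had 8.71 with the JAK1, 10.37 with the JAK1/2, 10.42 with the PAN and 10.11 with the TYK2 inhibitor, against 10.60 with JAK2, 10.56 with IFN.6226 and 10.47 with IFN.6228. In each helicase the JAK1 inhibitor stands far below, and the other 3 of its class are close under the JAK2 and JAK3 inhibitors. The differences were -0.69 (SE 0.27) for Ifih1, -0.35 (SE 0.16) for Ddx58 and -0.64 (SE 0.32) for Dhx58, and without the JAK1 inhibitor they were -0.36, -0.17 and -0.25.

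PKR and ZBP1 RNA was likewise lowest with the JAK1 inhibitor at 8 h, and the rest of its class lay under the JAK2 and JAK3 inhibitors. Eif2ak2 had log2 intensities of 7.94 with the JAK1, 9.45 with the JAK1/2, 9.65 with the PAN and 9.43 with the TYK2 inhibitor, against 9.92 with JAK2, 9.86 with IFN.6226 and 9.86 with IFN.6228. Zbp1 had 9.82 with the JAK1, 10.78 with the JAK1/2, 10.81 with the PAN and 10.69 with the TYK2 inhibitor, against 10.96 with JAK2, 10.93 with IFN.6226 and 10.86 with IFN.6228. Their differences were -0.76 (SE 0.31) and -0.39 (SE 0.19), and without the JAK1 inhibitor -0.37 and -0.15.

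The PYHIN genes were also lowest with the JAK1 inhibitor at 8 h. Ifi208 had log2 intensities of 8.58 with the JAK1, 9.20 with the JAK1/2, 9.69 with the PAN and 9.35 with the TYK2 inhibitor, against 9.93 with JAK2, 9.92 with IFN.6226 and 9.87 with IFN.6228. Ifi213 had 8.73 with the JAK1, 10.35 with the JAK1/2, 10.46 with the PAN and 10.17 with the TYK2 inhibitor, against 10.70 with JAK2, 10.84 with IFN.6226 and 10.74 with IFN.6228. Aim2 had 7.88 with the JAK1, 8.10 with the JAK1/2, 8.37 with the PAN and 8.24 with the TYK2 inhibitor, against 8.44 with JAK2, 8.37 with IFN.6226 and 8.34 with IFN.6228. The groups overlap in Aim2 through the PAN inhibitor alone. The differences were -0.70 (SE 0.19) for Ifi208, -0.83 (SE 0.32) for Ifi213 and -0.24 (SE 0.12) for Aim2, and without the JAK1 inhibitor -0.50, -0.43 and -0.15. Nod1 lay in a narrow range at 8 h, with 9.10 for the JAK1, 9.36 for the JAK1/2, 9.39 for the PAN and 9.17 for the TYK2 inhibitor, against 9.43 for JAK2, 9.39 for IFN.6226 and 9.41 for IFN.6228. Its difference was -0.16 (SE 0.10), and -0.11 without the JAK1 inhibitor.

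**Figure D2:**
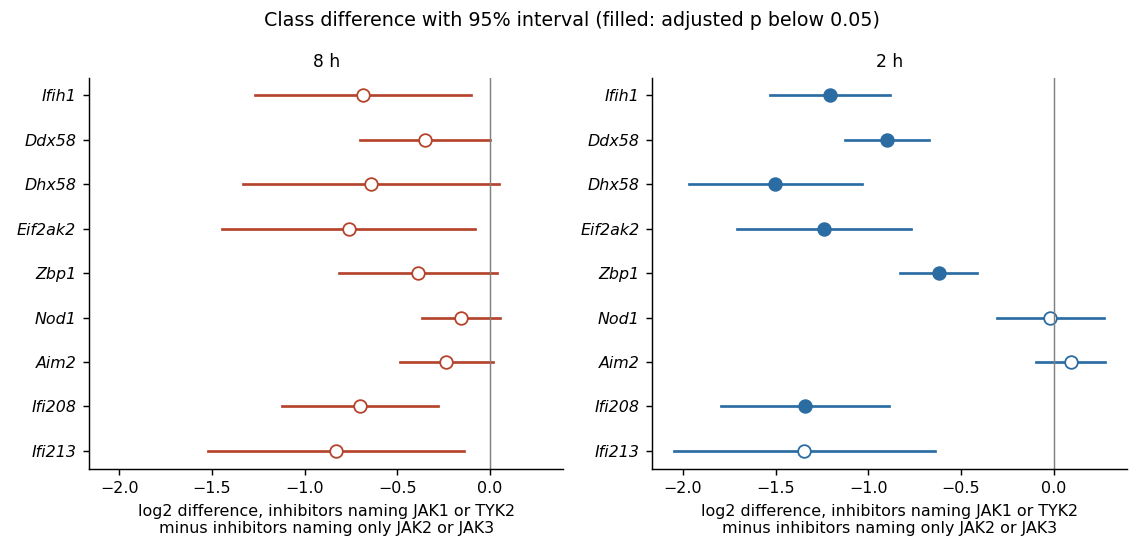
Difference in log2 intensity of each sensor between the 4 inhibitors naming JAK1 or TYK2 and the 3 naming only JAK2 or JAK3, at 8 h (left) and 2 h (right), with 95% intervals. Filled points mark an adjusted p below 0.05: 6 genes at 2 h and 0 at 8 h.

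An effect past the threshold at one time and not at the other does not show that the times differ, so the 8 h minus 2 h difference of each inhibitor was compared between the classes. Dhx58 and Ifi208 passed, 2 of 9 sensors, both with a larger rise in the JAK1/TYK2 class, where 12 of all genes did (0.101%). For Dhx58 the 8 h minus 2 h difference was 1.26 with the JAK1, 1.88 with the JAK1/2, 1.85 with the PAN and 1.54 with the TYK2 inhibitor, against 0.67 with JAK2, 0.90 with IFN.6226 and 0.76 with IFN.6228. For Ifi208 it was 1.65 with the JAK1, 1.36 with the JAK1/2, 1.51 with the PAN and 1.43 with the TYK2 inhibitor, against 0.88 with JAK2, 0.81 with IFN.6226 and 0.86 with IFN.6228. The classes differed by 0.86 (SE 0.14, adjusted p = 0.0308) for Dhx58 and 0.64 (SE 0.11, adjusted p = 0.0458) for Ifi208. Both calls ended when any inhibitor other than JAK1 was left out. Without the JAK1 inhibitor 6 of the 9 passed, where 40 of all genes passed in that direction and 1 in the other. The differences were 0.98 for Dhx58, 0.67 for Ifih1, 0.62 for Ddx58, 0.59 for Eif2ak2, 0.58 for Ifi208 and 0.49 for Ifi213.

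Ddx58 was close to the threshold with all inhibitors, with a class difference of 0.55 (SE 0.10, adjusted p = 0.0583). Its 8 h minus 2 h difference was 0.51 to 0.83 in the JAK1/TYK2 class, against 0.12 to 0.22 with the other 3. Ifi213 differed by 0.51 (SE 0.11, adjusted p = 0.131), Ifih1 by 0.52 (SE 0.16, adjusted p = 0.479) and Eif2ak2 by 0.48 (SE 0.14, adjusted p = 0.479). Ifih1 and Eif2ak2 hardly differed between the times with the JAK1 inhibitor (0.14 and 0.01), against 0.80 and 0.59 with the JAK1/2 inhibitor. Over all genes the median class difference was -0.09.

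**Figure D3:**
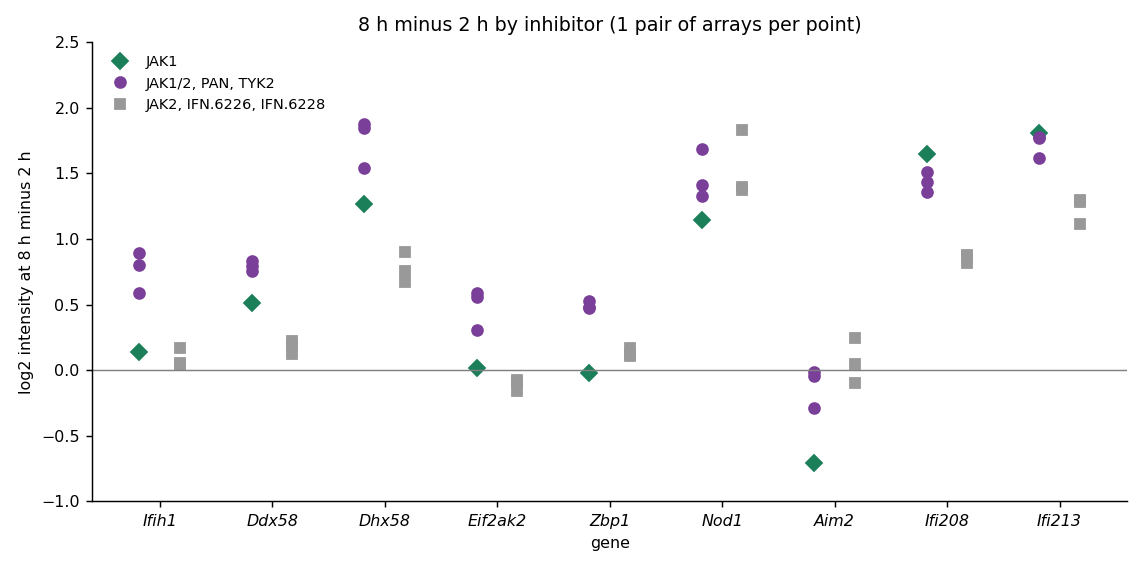
Difference in log2 intensity between the 8 h and the 2 h array of each inhibitor for the 9 sensors, with 1 point per inhibitor. Dhx58 and Ifi208 differ more between the times in the JAK1/TYK2 class (1.26 to 1.88 and 1.36 to 1.65) than with the other 3 (0.67 to 0.90 and 0.81 to 0.88).

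Across all 7 inhibitors, 7 of the 9 sensors were higher at 8 h than at 2 h, in a fit with inhibitor and time as terms. Among all genes 2526 were higher (21.3%) and 3316 lower (28.0%), and no sensor was lower. Nod1 and Ifi213 were higher by the most. Nod1 was 1.45 higher (SE 0.08, 2.74-fold, adjusted p = 3.95e-09), by 1.14 to 1.83 in single inhibitors. Ifi213 was 1.52 higher (SE 0.08, 2.87-fold, adjusted p = 6.49e-09), by 1.11 to 1.81. Dhx58 was 1.27 higher (SE 0.13, 2.40-fold, adjusted p = 2.86e-06) and Ifi208 1.21 higher (SE 0.10, 2.32-fold, adjusted p = 2.58e-07). All 4 of these genes were higher at 8 h with each of the 7 inhibitors.

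The other 3 moved less. Ddx58 was 0.49 higher (SE 0.09, adjusted p = 3.06e-04), Ifih1 0.38 higher (SE 0.10, adjusted p = 0.00706) and Zbp1 0.27 higher (SE 0.07, adjusted p = 0.00494). These averages were uneven. With the JAK1/2, PAN and TYK2 inhibitors Ifih1 was 0.59 to 0.89 higher and Zbp1 0.48 to 0.53. With the other inhibitors, JAK1 included, the differences were 0.04 to 0.17 for Ifih1 and -0.02 to 0.17 for Zbp1. Ifih1 and Zbp1 did not pass without the inhibitor term (adjusted p = 0.278 and 0.202). Eif2ak2 differed by 0.16 (adjusted p = 0.158), being higher at 8 h in the JAK1/TYK2 class and lower in the JAK2/JAK3 class. Aim2 differed by -0.12 (adjusted p = 0.279), and with the JAK1 inhibitor it was 0.71 lower at 8 h. All 4 B cell markers and all 6 T cell markers were also higher at 8 h, the B cell list by a median of 0.39, and their part in the time differences was not tested.

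Within the class that names JAK1 or TYK2, the JAK1 inhibitor was set against the JAK1/2 and PAN inhibitors over both times. With it 7 of the 9 sensors were lower, by 1.56-fold to 3.31-fold, where 113 of all genes were lower (0.954%). Ifi213 differed by -1.73 (SE 0.14, 3.31-fold lower, adjusted p = 6.49e-05), and it had the smallest p of all genes. Dhx58 differed by -1.38 (SE 0.22, adjusted p = 0.00548), Eif2ak2 by -1.33 (SE 0.15, adjusted p = 3.36e-04), Ifih1 by -0.97 (SE 0.17, adjusted p = 0.0105), Ifi208 by -0.96 (SE 0.16, adjusted p = 0.00897), Zbp1 by -0.71 (SE 0.11, adjusted p = 0.00516) and Ddx58 by -0.64 (SE 0.14, adjusted p = 0.0473). Ddx58 passed in 1 of the 6 fits that left out an inhibitor, with an adjusted p of up to 0.216. It also did not pass after quantile normalization, without a filter or without the variance trend. Ifi208 did not pass without the PAN inhibitor (adjusted p = 0.171) or after quantile normalization (adjusted p = 0.0529). Nod1 (-0.16, adjusted p = 0.595) and Aim2 (-0.08, adjusted p = 0.857) did not pass. Without the 8 h array of the JAK1 inhibitor 4 passed, and Ifih1 (-0.83, adjusted p = 0.135), Ddx58 (-0.65, adjusted p = 0.193) and Zbp1 (-0.54, adjusted p = 0.0597) did not. The structures of the coded inhibitors are not given in the sources used here.

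The TYK2 inhibitor was compared with the JAK1/2 and PAN inhibitors in the same way, and 0 of the 9 sensors passed by limma, as 1 of all genes did (0.00844%). At an unadjusted p under 0.05 there were 618 genes and, among the sensors, Nod1 (-0.36, 95% interval -0.63 to -0.10, adjusted p = 0.888). The lowest end of the 9 intervals was -0.63 (Nod1) and the highest 0.47 (Ifih1), and most were narrower, such as -0.32 to 0.15 for Zbp1. For each sensor, a difference inside its own interval is not excluded. The JAK2 inhibitor differed from the mean of the JAK3 pair by -0.19 (Nod1) to 0.17 (Dhx58), with intervals from -0.46 to 0.63. There 0 of the 9 passed by limma (adjusted p = 0.999 for each), 0 had an unadjusted p under 0.05, and 3 of all genes passed (0.0253%) with 554 at an unadjusted p under 0.05.

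**Figure D4:**
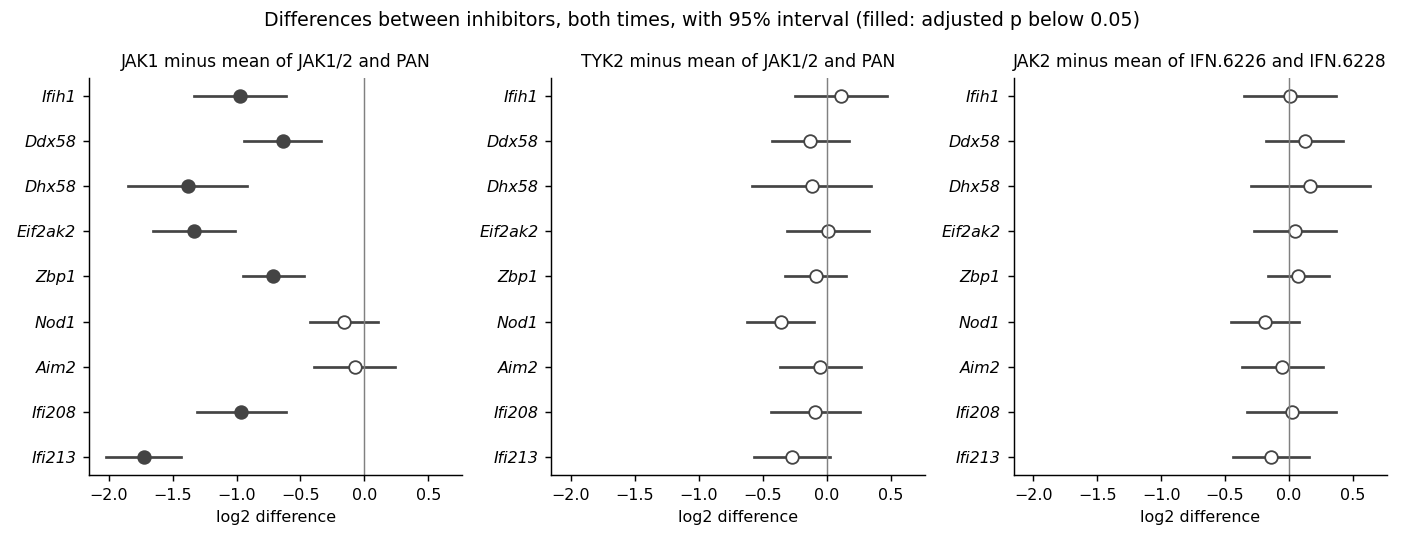
Difference in log2 intensity of each sensor for the JAK1 inhibitor against the JAK1/2 and PAN inhibitors, the TYK2 inhibitor against the same, and the JAK2 inhibitor against the JAK3 pair, with 95% intervals. The JAK1 inhibitor is lower in 7 of the 9 genes past the threshold (-1.73 to -0.64), and the other comparisons pass in 0.

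To describe how the sensors varied together, Nod1 and Aim2 were set apart by choice. They are the 2 that did not follow the class order at 2 h in these same arrays. The values of r at 2 h follow in part from this choice and are no test of it. Among the 7 other than Nod1 and Aim2, the 21 pairs had a Pearson r of 0.764 to 0.979 over the 14 arrays, 0.901 to 0.998 over the 7 arrays at 8 h and 0.918 to 0.995 over the 7 at 2 h. Aim2 had an r with these 7 of -0.18 to 0.18 over the 14 arrays, 0.889 to 0.979 at 8 h and -0.69 to -0.61 at 2 h. Nod1 had 0.16 to 0.73 over the 14 arrays, 0.837 to 0.904 at 8 h and -0.14 to 0.02 at 2 h. With the JAK1 inhibitor, Aim2 was the lowest of the 7 arrays at 8 h and the highest at 2 h. These are descriptions over arrays that share inhibitors, and the JAK1 array is the lowest for all 9 sensors at 8 h and for 7 at 2 h.

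The genes whose log2 intensity was most like that of a sensor over the 14 arrays were named without regard to function. Trim21 (r 0.986) and Cmpk2 (0.984) were the closest to Ifih1, Ifit3 (0.992) and Slfn8 (0.990) to Ddx58, and Samd9l (0.991) and Rnf213 (0.991) to Dhx58. Iigp1 (0.997) and Parp14 (0.984) were closest to Eif2ak2, Oasl2 (0.981) and Parp9 (0.981) to Zbp1, Phf11c (0.983) and Mitd1 (0.982) to Ifi208, and Samd9l (0.994) and Ifi214 (0.994) to Ifi213. Nod1 was most like Tmem71 (0.997) and Hpcal1 (0.995), and Aim2 most like Exoc6 (0.976) and Zfp62 (0.945). Of the genes named, Samd9l alone recurs, for Dhx58 and Ifi213, so sharing no nearest gene is not particular to Nod1 and Aim2.

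Genes that work with the sensors were read from 4 further lists, whose counts stand against the shares over all genes: 0.692% lower in the JAK1/TYK2 class at 2 h, and between the times 21.3% higher and 28.0% lower at 8 h. Of the other PYHIN genes, 14 names gave 6 with their own probe set and 3 tested, and 2 of the 3 were lower at 2 h in the JAK1/TYK2 class. Ifi203 differed by -0.69 (SE 0.11, adjusted p = 0.00904) and Ifi209 by -0.81 (SE 0.14, adjusted p = 0.0142), while Ifi214 differed by -1.03 (SE 0.25, adjusted p = 0.120). All 3 were higher at 8 h, Ifi214 by 1.25, Ifi209 by 1.15 and Ifi203 by 1.00. The list medians were -0.81 for the class at 2 h and 1.15 for the times, against 0.01 and 0.02 over all genes.

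The adaptors and kinases downstream of the sensors (19 tested) gave 0 calls in the class comparison at 2 h by limma, with a list median of -0.02. The nearest was Irf7, the transcription factor that carries the signal to the interferon alpha genes (-1.50, SE 0.33, adjusted p = 0.0690). Between the times 9 of these 19 were higher and 5 lower at 8 h, with a list median of 0.17, so that the share lower is near the 28.0% of all genes. Pycard, which encodes ASC, was 0.69 higher (SE 0.05), the kinase gene Ikbke 0.68 higher (SE 0.05), Sting1, the adaptor of cytosolic DNA sensing, 0.38 higher (SE 0.04), and Irf7 1.13 higher (SE 0.13).

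Among other sensors of nucleic acid and bacterial products (17 tested), 2 were lower at 2 h. Tlr7, the endosomal receptor of single-stranded RNA, differed by -0.81 (SE 0.13, adjusted p = 0.00807), and the helicase gene Ddx60 by -1.20 (SE 0.20, adjusted p = 0.00949). Both were higher at 8 h, by 1.18 and 1.08. The list as a whole had 5 of 17 genes higher and 5 lower at 8 h, near the shares over all genes (21.3% and 28.0%), among them Nlrc3 at 0.85 (SE 0.06) and Dhx33 at -0.88 (SE 0.08). Of the regulators and nucleases (18 tested), Trim25, the ubiquitin ligase known to act on RIG-I, was lower at 2 h (-0.85, SE 0.14, adjusted p = 0.0115). Between the times 6 of 18 were higher and 4 lower, against 21.3% and 28.0% of all genes, with Rnf5 at 0.52 (SE 0.06), Samhd1, a phosphohydrolase that depletes nucleotides, at 0.25 (SE 0.04) and the deubiquitinase gene Tnfaip3 at -0.60 (SE 0.06). The class medians at 2 h were -0.06 for the other sensors and -0.01 for the regulators.

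**Figure D5:**
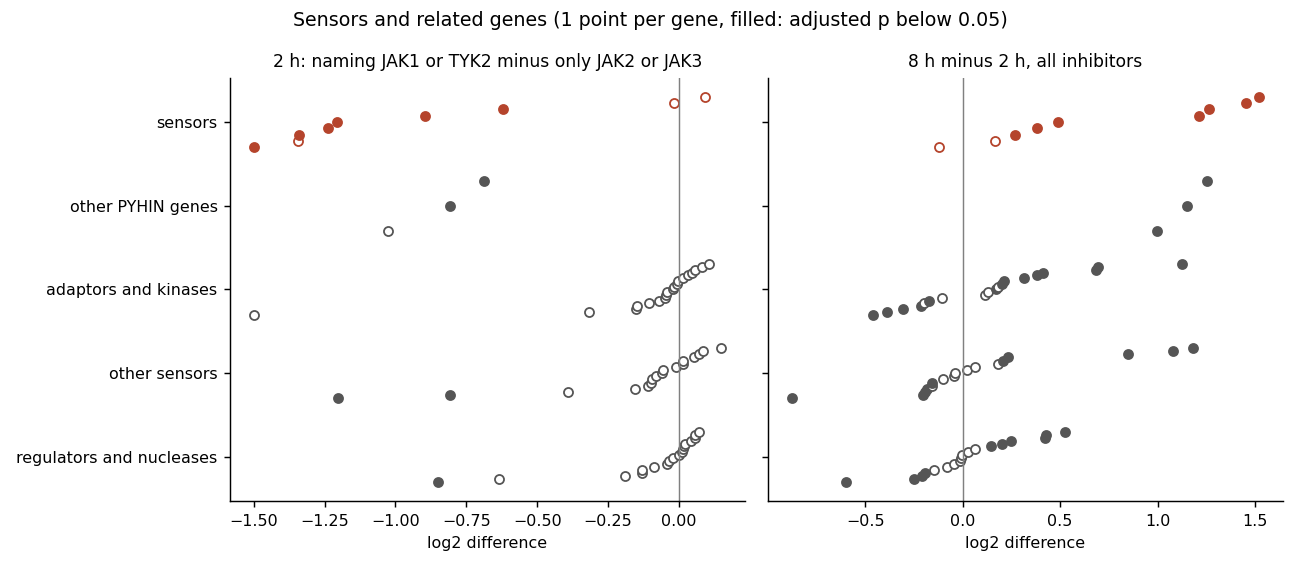
Class difference at 2 h of the tested genes of the sensor list and of 4 related lists, in log2 intensity, with 1 point per gene. Of the 9 sensors 6 passed the threshold, of the other PYHIN genes 2 of 3, of the other sensors 2 of 17, of the regulators and nucleases 1 of 18, and of the adaptors and kinases 0 of 19.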

How the data were processed

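The 14 samples were hybridised to Affymetrix Mouse Gene 1.0 ST arrays, 1 each. The deposited values are linear intensities, 1 per probe set and array, from 4.78 to 22879 (medians 109 to 121), and RMA and Affymetrix Power Tools are the tools listed, with no version, per the submitters' processing notes. Which arrays were normalized together, and the background correction, are not given in the sources used here. The log2 of the deposited intensity was taken. Of 24922 probe sets, 21425 carried 1 symbol, 1399 several and 2098 none, and probe sets of 1 symbol were kept. Testing required a mean log2 of at least 6.27, the 40th percentile, for the brightest probe set of a gene.

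Tests were run with limma 3.58.1 in R 4.3.3 (lmFit, eBayes with trend), with Benjamini-Hochberg adjustment over 11851 genes and a threshold of 0.05. Classes were compared on 1 value per inhibitor (4 against 3), and times and single inhibitors in an additive fit of inhibitor and time. Python 3.11.15, numpy 2.4.6, pandas 2.3.3 and matplotlib 3.10.9 made tables and plots. The steps were tested on simulated data. The number of arrays limits the precision.

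The sensors and the gene and marker lists were chosen with earlier results of these data known. All sensors were named, with up to 4 genes of each related list by the moderated t among those that passed at 2 h or between the times, and the 2 genes most like each sensor. Alternatives were other scalings, filters, probe set rules, offsets and moderation, no inhibitor term, the JAK3 inhibitors averaged, each inhibitor left out and the 8 h array of the JAK1 inhibitor left out.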

Additional observations from a re-analysis of the deposited data

Results flagged for a closer look

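Among the 4 inhibitors naming JAK1 or TYK2, 6 of the 18 combinations of sensor and time held an array far from the other 3, by Dixon's ratio at its 95% critical value, where chance gives about 1 in 20 for a single group. The sensors vary together and share arrays, so the 18 are not independent, and that rate is no measure of the count. By the same ratio an array stood apart in 7.58% of all 11851 genes at 8 h, with 4 of the 9 sensors, and in 5.07% at 2 h, with 2 of the 9. In 5 of the 6 it was the JAK1 inhibitor and the value was low, and 4 of these are from its 8 h array, whose upper quartile of 398 was below those of the other 13. It was the low array in 4.60% of all genes at 8 h and 1.14% at 2 h. These were the log2 intensities of Ifih1 (7.92), Eif2ak2 (7.94), Zbp1 (9.82) and Ifi213 (8.73) at 8 h, and of Dhx58 (7.45) at 2 h. The 8 h class differences without this inhibitor are given beside the results at 8 h. For Dhx58 at 2 h the class difference was -1.23 without it, against -1.50 with all inhibitors. The remaining one was Nod1 at 2 h with the TYK2 inhibitor (7.48), next to 7.60 with the JAK2 inhibitor in the other class.

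The difference between the classes passed as different at 8 h and 2 h for Dhx58 and Ifi208 with all inhibitors. Each call held in 1 of the 7 fits that left out an inhibitor, with adjusted p by limma of up to 0.331 and 0.450. The 8 h minus 2 h difference was larger in the JAK1/TYK2 class by 0.86 for Dhx58 and by 0.64 for Ifi208 on the log2 scale.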

How the results depend on the processing

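The count of sensors higher at 8 h stayed at 7 when any inhibitor was left out, and 0 sensors passed in the class comparison at 8 h, for the TYK2 inhibitor or for the JAK2 inhibitor under any alternative run. In the class comparison at 2 h, 3 of the 9 sensors passed with robust moderation and 3 with the JAK3 inhibitors averaged, against 6, and leaving out each inhibitor gave 2 to 7. Only Ifih1 and Ddx58 passed without the JAK2 inhibitor or without IFN.6228. For the class difference between the times (2 passed), quantile normalization gave 4, median centring 1, testing without a filter 1, and there were 0 with no variance trend, with 50 added to the intensity or with the JAK3 inhibitors averaged. Leaving out each inhibitor gave 0 to 6. For the JAK1 inhibitor against JAK1/2 and PAN (7 passed), the count was 5 to 7 with other inhibitors left out. Without its 8 h array that inhibitor had 1 array, so no count is given for that fit. The causes were not tested.

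Over all genes, the calls at 2 h numbered 82, and 34 to 89 under the other settings and 28 to 106 with an inhibitor left out. For the class difference between the times they numbered 12, against 2 to 24 and 2 to 41. For the JAK1 inhibitor they numbered 117, against 42 to 142 with an inhibitor left out. They split into 4 higher and 113 lower as deposited, and 44 higher and 93 lower after quantile normalization. For the TYK2 inhibitor there was 1, against 0 to 3 and 0 to 4, and for the JAK2 inhibitor 3, against 2 to 18 and 3 to 10. The median class difference of all genes at 8 h was -0.08, and -0.13 to 0.00311 under other settings.

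Values that changed sign were small and had not passed. Nod1 in the class comparison at 2 h ranged from -0.15 to 0.11 with an inhibitor left out and was 0.0516 with the JAK3 inhibitors averaged, and in the class difference between the times from -0.24 to 0.00687. Without the 8 h JAK1 array, the JAK1 comparison gave 0.0219 for Nod1 and 0.26 for Aim2. For the TYK2 inhibitor, leaving one out gave -0.10 to 0.12 for Eif2ak2, -0.11 to 0.0120 for Aim2 and -0.30 to 0.12 for Ifi208. For the JAK2 inhibitor, Ifih1 was -0.0151 after quantile normalization, -0.0300 after median centring and -5.83e-04 to 0.0130 with an inhibitor left out, and Ifi208 was -0.0155 after median centring and -0.0181 to 0.0595 with one left out. The signal of Ifi208 and Ifi213 may be shared between them, and genes under the filter on brightness were not tested.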

Other observations

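With the JAK1 inhibitor, genes of the related lists were lower as well, against the JAK1/2 and PAN inhibitors over both times. Irf7 differed by -1.65 on the log2 scale, Ifi214 by -1.48, Ddx60 by -1.43, Tlr7 by -0.88, Ifi203 by -0.71, Trim25 by -0.69 and Ifi209 by -0.66. Irf7 was the 1 gene of the 19 adaptors and kinases that passed there, and the PYHIN list gave 3 of 3, where 113 of all genes were lower (0.954%). The values of these genes without the 8 h array of the JAK1 inhibitor are not given here.

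In the class difference between the times, Irf7 (0.83, SE 0.12, adjusted p = 0.0149) and Trim25 (0.52, SE 0.09, adjusted p = 0.0458) passed next to the sensors Dhx58 and Ifi208. Of all genes 12 passed in that direction (0.101%). Irf7 was 1 of 19 adaptors and kinases tested, and Trim25 1 of 18 regulators and nucleases. The 8 h minus 2 h difference of Irf7 and of Trim25 was larger in the JAK1/TYK2 class. Their calls were not followed under the alternatives, many of which ended those of Dhx58 and Ifi208.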
